A study of Mus musculus with 8 samples.

Results

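The axon guidance ligands and receptors described here are 68 genes of the 17488 listed in the deposited table. They were chosen by name alone, from GENCODE M21 symbols of the semaphorins 3 to 7, plexins, neuropilins, Slits, Robos, ephrins, Eph receptors, netrins, netrin-Gs, Unc5 receptors and Dcc. The rule matched 76 annotated genes, of which Epha6, Ntn3, Ntn5, Robo3, Unc5cl and 3 antisense transcripts of Plxna4 were not analysed here. Of the 68, 35 encode ligands and 32 encode receptors. The remaining one, Unc50, matched only through its spelling and encodes an unrelated membrane protein. All 68 passed the filter on low values. Some of them did so only with their values in panobinostat tumours, and Unc5d only with those in vehicle tumours, as listed at the end.

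The 8 tumours sequenced, 1 per mouse, were neuroblastomas of animals with both copies of the TH-MYCN transgene, in which the tyrosine hydroxylase promoter drives human MYCN in sympathoadrenal cells. All animals of both groups carried the transgene, and treatment started at about 6 weeks of age, with tumours of 200 to 300 mm3. In the panobinostat group (n = 4 animals) 2 doses of 5 mg/kg of this inhibitor of zinc-dependent histone deacetylases were given 24 h apart, and in the vehicle group (n = 4) vehicle was given on the same schedule. Tumours were taken 4 h after the second dose, and each library holds tumour and stroma of 1 animal.

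Axon guidance genes encode cues and receptors that steer growing axons, migrating neural crest cells and sprouting vessels. Semaphorins signal through plexins, most secreted class 3 semaphorins with a neuropilin as the binding subunit. Slits repel through Robo receptors, and netrins attract through Dcc and repel through Unc5 receptors. Ephrins are held at the cell surface and bind Eph receptor tyrosine kinases on neighbouring cells, with signals in both directions. In the sympathetic lineage, from which neuroblastoma arises, Sema3a with Nrp1 and Sema3f with Nrp2 guide the migration of neural crest cells and the growth of sympathetic axons in the mouse.

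In panobinostat-treated against vehicle tumours, 9 of 12 families held calls in both directions, and Slits, Robos and class 4 semaphorins each held 1 call, lower. Of 7 secreted semaphorins 6 were higher while Sema3a was lower, Nrp1 was higher while Nrp2 was lower, and Ntn1 was higher while the netrin-Gs and Dcc were lower. Among Eph A receptors the 2 most abundant in vehicle tumours, Epha7 and Epha5, were lower and the other 6 were higher. Of the secreted semaphorins and Eph A receptors that were higher, Sema3d, Sema3e, Epha1, Epha3 and Epha8 passed the filter only with their panobinostat values. Slit2 and Robo2 were both lower. In all, 26 of the 68 members were higher and 20 lower at an adjusted p under 0.05, and 22 made no call (limma, Benjamini-Hochberg adjustment over 16157 genes). Over all genes tested 63.7% were called, 31.2% higher and 32.4% lower, so that 38.2% higher and 29.4% lower members are close to the background. The members' median log2 change was 0.09, against -0.02 over all genes tested. With libraries centred on their medians it was -0.03, against -0.14 over all genes. With scaling to read totals it was 0.21, against 0.10 over all genes.

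A called change of at least 2-fold was found for 23 of the 68 members that were higher and 12 that were lower. Both are larger shares than the 20.7% and 13.5% of all genes, a difference that was not tested. The 23 include Plxnb3, Epha3, Sema3e, Epha1, Epha8 and Sema3d, which passed the filter only with their panobinostat values. How many of all genes did so was not computed. In 38 members the 4 values of the panobinostat group all lay on one side of the 4 vehicle values, 21 above and 17 below, against 59.7% of all genes (28.5% above and 31.2% below). Ligands split into 12 higher, 10 lower and 13 with no call, and receptors into 14, 10 and 8. Unc50 made no call (log2 change 0.02, SE 0.11). The plot of changes by class shows these splits gene by gene.

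**Figure D1:**
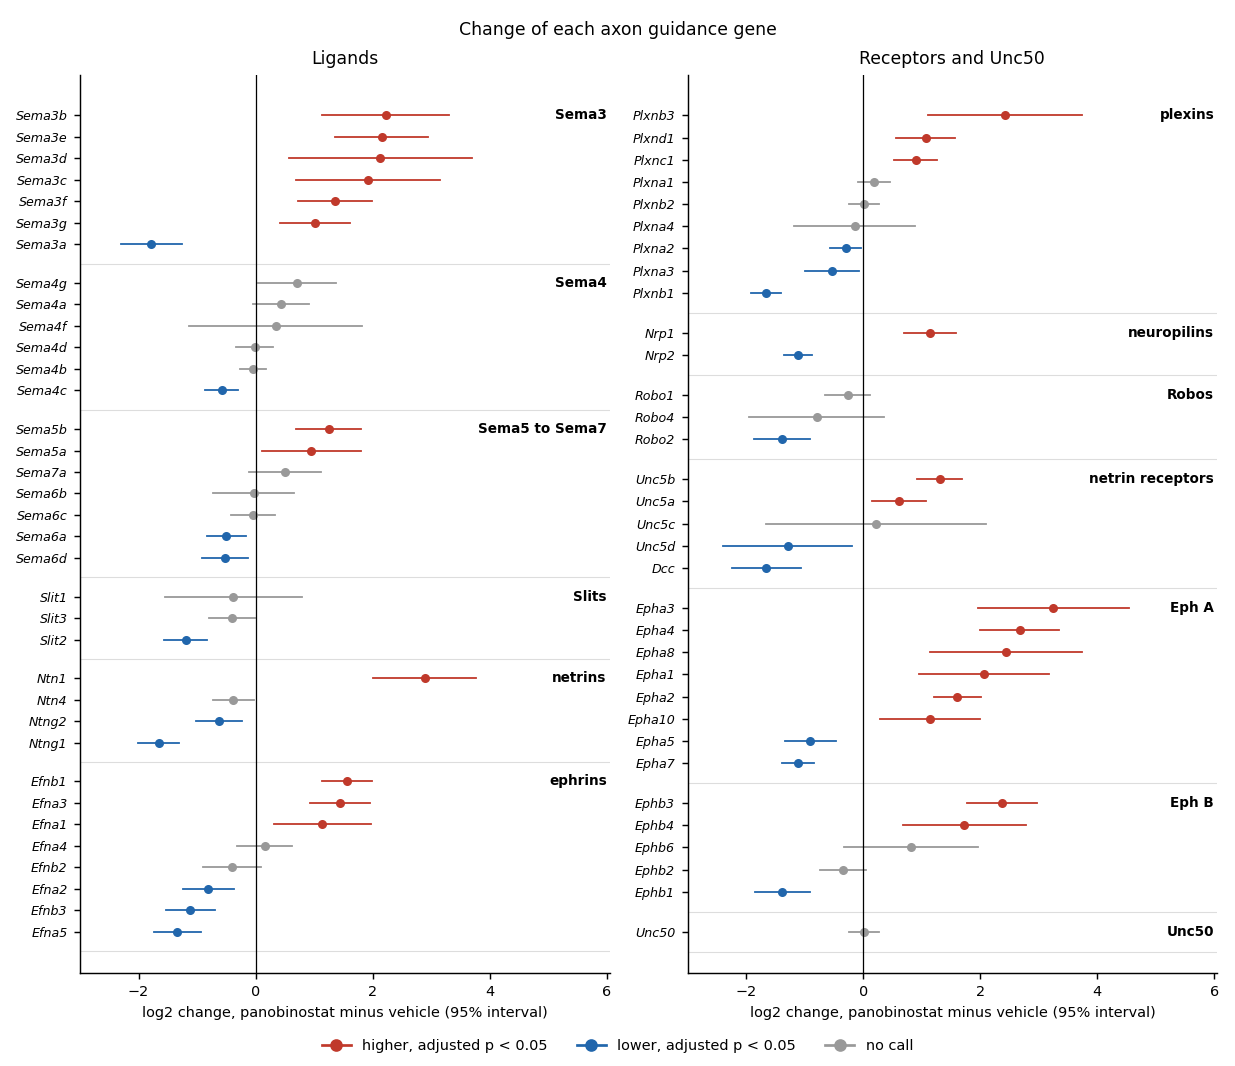
Fitted log2 change (panobinostat minus vehicle, n = 4 tumours each) of the 68 members by class, with bars for the 95% interval; red marks adjusted p under 0.05 and higher, blue lower, and grey no call. Most classes hold members on both sides of 0, and the lowest value is that of Sema3a (-1.78) and the highest that of Epha3 (3.25).

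Read totals over the listed genes were 18664066 to 22235545 in panobinostat and 22055658 to 23830026 in vehicle libraries. Values below are CPM, that is read counts with 0.5 added, scaled to the authors' effective library size. The sympathoadrenal markers of the labelled tumour type were all detected, with 5 of 10 called lower (median log2 change -1.37) and a sum of 1307 to 1854 CPM in panobinostat tumours and 2644 to 3096 CPM in vehicle tumours. Markers of other cells moved with treatment. All 10 fibroblast and mural markers were higher (median log2 change 2.56, sum 9244 to 16585 CPM in panobinostat tumours and 1600.4 to 5125 CPM in vehicle tumours), as were 9 of 10 macrophage markers (median 2.21, sum 2814 to 5018 CPM in panobinostat tumours and 590.3 to 1171 CPM in vehicle tumours). Of 10 Schwann cell markers 6 were higher and 1 lower (median 1.78, sum 229 to 602 CPM in panobinostat tumours and 265 to 398 CPM in vehicle tumours), and 2 of 10 endothelial markers were higher (median 0.64, sum 397 to 633 CPM in panobinostat tumours and 123 to 633 CPM in vehicle tumours). No gene of these 4 lists was at 0 in all libraries. Of 10 T cell markers 2 passed the filter, 1 higher and 1 lower, with a sum over all 10 of 31.8 to 56.4 CPM in panobinostat tumours and 13 to 48.3 CPM in vehicle tumours. Reads of liver, pancreas and kidney genes summed to 37.8, 211, 980 and 8284 CPM in panobinostat tumours 1 to 4. In vehicle tumours they summed to 10.8 to 16.5 CPM. Those of adrenal cortex genes summed to 722, 39.6, 1013 and 2756 CPM in panobinostat tumours 1 to 4. Their sum in vehicle tumours was 9.21 to 11.4 CPM. Of 8 adrenal cortex genes 5 passed the filter, all higher (median log2 change 7.95). Of 9 listed genes of liver, pancreas and kidney 3 passed it, 2 of them higher. Without panobinostat libraries 3 and 4, which held the highest sums, 20 members were higher and 13 lower. Panobinostat libraries 1 and 2 also held more of both kinds of reads than any vehicle library. The part of these cells in the results was not tested, and in bulk tumours fewer cells of a type and less RNA per cell cannot be told apart.

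The 4 members with the smallest adjusted p among receptors and ligands in each direction, leaving out those without exactly 1 RefSeq start, were Plxnb1 and Ntng1, which fell, and Epha2 and Efnb1, which rose. Their promoters are shown since their changes had the smallest adjusted p of their kind. Each line gives the 250 bases before the RefSeq start, 5′ to 3′ in the direction of the gene (GRCm38.p6). Capitals mark the GC box GGGCGG on either strand, a motif bound by Sp1-type factors. The windows are chr9:109095186-109095435 (+ strand), chr4:141300971-141301220 (+), chr3:110143473-110143722 (−) and chrX:99135811-99136060 (+).
Plxnb1: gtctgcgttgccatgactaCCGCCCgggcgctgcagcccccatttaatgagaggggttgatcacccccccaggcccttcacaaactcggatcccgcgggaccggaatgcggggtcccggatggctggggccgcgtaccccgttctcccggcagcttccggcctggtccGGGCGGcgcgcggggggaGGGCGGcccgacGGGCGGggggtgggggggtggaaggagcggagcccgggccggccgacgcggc
Epha2: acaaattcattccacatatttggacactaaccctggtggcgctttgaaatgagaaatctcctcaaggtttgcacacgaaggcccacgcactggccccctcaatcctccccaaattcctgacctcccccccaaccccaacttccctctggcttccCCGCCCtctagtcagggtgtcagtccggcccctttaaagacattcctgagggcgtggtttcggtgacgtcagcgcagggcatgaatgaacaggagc
Ntng1: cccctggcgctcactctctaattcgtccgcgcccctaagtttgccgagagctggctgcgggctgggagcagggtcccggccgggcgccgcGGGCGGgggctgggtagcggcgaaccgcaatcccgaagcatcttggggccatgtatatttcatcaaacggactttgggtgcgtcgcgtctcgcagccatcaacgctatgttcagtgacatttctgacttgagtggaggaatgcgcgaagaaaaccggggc
Efnb1: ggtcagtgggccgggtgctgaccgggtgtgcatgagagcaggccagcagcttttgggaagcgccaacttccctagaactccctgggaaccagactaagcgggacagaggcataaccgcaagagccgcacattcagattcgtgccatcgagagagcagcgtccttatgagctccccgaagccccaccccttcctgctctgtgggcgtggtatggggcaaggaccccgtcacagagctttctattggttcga
The windows hold 4, 1, 1 and 0 GC boxes and 30, 9, 25 and 13 CpG dinucleotides, in that order. In GENCODE M21 the 5′ end of Ntng1 is at 110144011, so its window lies inside the annotated gene. The Plxnb1 window runs past the start of that gene in GENCODE M21, at 109095389. None of the 4 holds the E-box CACGTG, the motif that MYC proteins bind with MAX. Over the 58 members with an entry (74 windows), a GC box on either strand lay in 80% of the windows of members that rose, in 66.7% of those that fell and in 64.3% of those with no call, against 32.7% of all 32851 promoter windows. CACGTG lay in 1 of 25 windows of members that rose, in 2 of 21 of those that fell and in 6.02% of all windows. The median number of CpG per window was 16 for members that rose, 18 for those that fell and 6 for all promoters. No test was made of these shares.

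Of the secreted semaphorins, 6 rose and 1 fell, and every member was called. Sema3d and Sema3e, which rose, passed the filter only with their panobinostat values. Sema3a, a repellent for sympathetic and sensory axons (chromosome 5, 13125414 to 13602565, mm10), had 6.74, 6.61, 5.52 and 8.84 CPM in panobinostat tumours, against 20.6, 25.4, 33.4 and 17.5 CPM in vehicle tumours. All panobinostat values lay below all vehicle values, and the gene fell by 1.78 on the log2 scale (SE 0.23, adjusted p = 1.48e-04). Sema3f, the Nrp2 ligand, had 40.7, 34.8, 33.5 and 27.9 CPM in panobinostat tumours, against 18, 15.6, 7.07 and 15.5 CPM in vehicle tumours. The groups did not overlap, and Sema3f rose by 1.36 on the log2 scale (SE 0.28, adjusted p = 0.00229). Sema3e, which binds Plxnd1 without a neuropilin, had 3.25, 7.33, 3.51 and 3.44 CPM in panobinostat tumours, against 1.39, 0.956, 0.865 and 0.638 CPM in vehicle tumours. It was low in both groups, did not overlap between them and rose by 2.15 on the log2 scale (SE 0.35, adjusted p = 5.98e-04).

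Of the other secreted semaphorins, Sema3b rose by 2.22 on the log2 scale (SE 0.48, adjusted p = 0.00293), and its human counterpart is known as a candidate tumour suppressor. Sema3c, a cue for neural crest cells in the developing heart, had 33.3, 78.3, 44.8 and 32.8 CPM in panobinostat tumours, against 7.44, 5.02, 32.8 and 15.1 CPM in vehicle tumours. Vehicle tumour 3 reached 32.8 CPM, as did the lowest panobinostat tumour, so that the groups touched, and Sema3c rose by 1.92 on the log2 scale (SE 0.54, adjusted p = 0.012). Sema3g, which is made mainly by arterial endothelium, rose by 1.02 (SE 0.27), and Sema3d by 2.13 (SE 0.70) with overlapping groups. The call of Sema3d was lost without panobinostat library 1 or 3 or vehicle library 3 (adjusted p from 0.0503 to 0.0627, limma). Summed over the 7 genes and per length of exon, class 3 transcripts were at 24.8 ± 7.95 CPM per kb in panobinostat tumours and 10.3 ± 1.55 CPM per kb in vehicle tumours (mean ± SD, n = 4 each). The fibroblast and mural markers, higher in the same tumours, summed to 9244 to 16585 CPM in panobinostat tumours and 1600.4 to 5125 CPM in vehicle tumours.

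Among the membrane-bound semaphorins, of the 6 class 4 genes only Sema4c, a ligand of Plxnb2, was called. It had 30.9, 31.9, 26.2 and 23.9 CPM in panobinostat tumours, against 43, 46.1, 39.9 and 39 CPM in vehicle tumours, with no overlap, and fell by 0.58 on the log2 scale (SE 0.12, adjusted p = 0.00281). That call was lost without panobinostat libraries 3 and 4 together (log2 change -0.42, adjusted p = 0.0512). Sema4d, the Plxnb1 ligand that is also an immune semaphorin, differed by -0.01 (SE 0.14) with a 95% interval -0.33 to 0.30. Sema4b differed by -0.04 (SE 0.10), with a 95% interval -0.26 to 0.17. Sema4g had 27, 40.2, 37.8 and 74.1 CPM in panobinostat tumours, against 23.7, 19.8, 35.9 and 25.3 CPM in vehicle tumours, which overlapped (log2 change 0.71, SE 0.30, adjusted p = 0.0612), and it was called without panobinostat library 1 (0.92, adjusted p = 0.0208) or vehicle library 3 (0.87, adjusted p = 0.0362). Sema4a, an immune semaphorin, made no call (log2 change 0.44, SE 0.21), but it was called higher without panobinostat library 2 (0.61, adjusted p = 0.0246) and with scaling to read totals (0.56, adjusted p = 0.0470). Sema4f spanned 4.23, 12.9, 8.10 and 7.97 CPM in panobinostat tumours and 2.14, 3.16, 16 and 12.7 CPM in vehicle tumours, a spread in which no call was made.

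In classes 5 to 7, 2 of 7 rose, 2 fell and 3 made no call. Sema5b, a transmembrane semaphorin with thrombospondin repeats, had 7.91, 7.07, 7.19 and 8.84 CPM in panobinostat tumours, against 4.13, 2.43, 4.37 and 2.53 CPM in vehicle tumours. Every panobinostat tumour was above every vehicle tumour, and Sema5b rose by 1.25 on the log2 scale (SE 0.25, adjusted p = 0.00178). Sema6d, the most abundant of these genes per length in vehicle tumours and a ligand of Plxna1, had 68.6, 87, 61.8 and 56.3 CPM in panobinostat tumours, against 83.7, 119, 110.1 and 81.1 CPM in vehicle tumours. Its groups overlapped, and it fell by 0.53 on the log2 scale (SE 0.17, adjusted p = 0.0233), a call lost without panobinostat library 3 or 4 or vehicle library 2 or 3 (adjusted p from 0.0601 to 0.0652, limma). Sema6a, a ligand of Plxna2 and Plxna4, had 21.3, 27, 19.7 and 20.2 CPM in panobinostat tumours, against 28, 35, 34 and 27.2 CPM in vehicle tumours. Without overlap it fell by 0.50 on the log2 scale (SE 0.15, adjusted p = 0.014), a call lost with scaling to read totals (adjusted p = 0.0525) and without panobinostat libraries 3 and 4 (adjusted p = 0.156, limma). Sema5a (log2 change 0.95, SE 0.37) was called with an adjusted p of 0.0487, and this call was lost without panobinostat library 1, 2 or 3 or vehicle library 1, 2 or 3. The GPI-anchored Sema7a (0.50, SE 0.27), Sema6b (-0.03, SE 0.31) and Sema6c (-0.05, SE 0.17) made no call, but Sema7a was called higher without vehicle library 1 (0.70, adjusted p = 0.0354, limma).

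Slit transcripts were lower in sum, at 33.3 ± 3.34 CPM per kb in panobinostat tumours and 50.4 ± 1.15 CPM per kb in vehicle tumours (mean ± SD, n = 4 each), and 1 of 3 genes was called. Slit2 (chromosome 5, 47983138 to 48307733, mm10), the secreted Robo ligand with leucine-rich repeats, had 94.6, 129.5, 112 and 157 CPM in panobinostat tumours, against 264, 289, 325 and 239 CPM in vehicle tumours. All 4 panobinostat tumours lay below all vehicle tumours, and Slit2 fell by 1.20 on the log2 scale (SE 0.16, adjusted p = 1.87e-04). Slit3, the highest Slit per union exon length but below Slit2 in CPM in every vehicle tumour, had 138, 141, 133 and 126 CPM in panobinostat tumours, against 215, 218, 121 and 173 CPM in vehicle tumours. Its groups overlapped at vehicle tumour 3 (log2 change -0.40, SE 0.18, adjusted p = 0.0711), and without that tumour Slit3 was called (-0.58, adjusted p = 0.00184). Slit1 ranged from 20.7 to 103 CPM among vehicle tumours and made no call (-0.38, SE 0.52).

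Netrin family genes moved in opposite directions. Ntn1 (chromosome 11, 68209364 to 68400823, mm10), the ligand of Dcc and of the Unc5 receptors, had 21.9, 24.3, 27.3 and 20.6 CPM in panobinostat tumours, against 5.67, 4.88, 1.53 and 2.34 CPM in vehicle tumours. The lowest panobinostat tumour was well above the highest vehicle tumour, and Ntn1 rose by 2.89 on the log2 scale (SE 0.39, adjusted p = 1.91e-04), which is 7.42-fold. Ntng1, a GPI-anchored netrin-G that binds a postsynaptic partner rather than Dcc, had 5.76, 7.13, 6.33 and 7.46 CPM in panobinostat tumours, against 19.7, 24.2, 21.7 and 18.7 CPM in vehicle tumours. Here the order was the reverse, with no overlap, and Ntng1 fell by 1.66 on the log2 scale (SE 0.15, adjusted p = 2.40e-05). Ntng2, its relative and the most abundant of the class per length in both groups, had 27.5, 23.9, 21.3 and 20.5 CPM in panobinostat tumours, against 29.6, 29.2, 45.3 and 41.6 CPM in vehicle tumours. Its groups did not overlap, and it fell by 0.63 on the log2 scale (SE 0.18, adjusted p = 0.0118). That call was lost without panobinostat libraries 3 and 4 (-0.48, adjusted p = 0.125), and 14.0% of the exon bases of Ntng2 lie in another listed gene on the same strand. Ntn4, a laminin-binding netrin, made no call (-0.38, SE 0.16, adjusted p = 0.0564), but it did without panobinostat library 1 (-0.47) or vehicle library 3 (-0.43).

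Ephrins split evenly, with 3 higher, 3 lower and 2 with no call among 8. Efnb3, a transmembrane ephrin of the nervous system and the most abundant ephrin per length, had 42.2, 59.3, 46.6 and 51.1 CPM in panobinostat tumours, against 93.6, 90.1, 100.02 and 155 CPM in vehicle tumours. All panobinostat values were lower, and Efnb3 fell by 1.11 on the log2 scale (SE 0.18, adjusted p = 6.20e-04). Efnb1 (chromosome X, 99136130 to 99148991, mm10), a transmembrane ephrin whose promoter is printed above, had 42.6, 43.2, 37.1 and 37.1 CPM in panobinostat tumours, against 12, 10.4, 13.6 and 19.5 CPM in vehicle tumours. In contrast to Efnb3 its panobinostat values were all higher, and it rose by 1.56 on the log2 scale (SE 0.19, adjusted p = 1.05e-04). Efnb2, the arterial ephrin, made no call (log2 change -0.40, SE 0.22), ranged from -0.52 to -0.16 when 1 library was left out and was called lower with quantile normalization (-0.49, adjusted p = 0.0441, limma).

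Of the GPI-anchored A-type ephrins, Efna5, a repellent for Epha5- and Epha7-bearing axons, had 4.32, 5.42, 4.28 and 4.61 CPM in panobinostat tumours, against 10.4, 13.8, 10.1 and 12.9 CPM in vehicle tumours. These groups did not overlap, and Efna5 fell by 1.34 on the log2 scale (SE 0.18, adjusted p = 1.77e-04). Efna2, also an axonal repellent, fell by 0.81 on the log2 scale (SE 0.20, adjusted p = 0.00549). Efna3 rose by 1.44 on the log2 scale (SE 0.23, adjusted p = 4.74e-04) and Efna1, a ligand of Epha2 in endothelium and epithelium, rose by 1.14 on the log2 scale (SE 0.37, adjusted p = 0.0213). The call of Efna1 was lost without panobinostat library 1 or 2 or vehicle library 4 (adjusted p from 0.0509 to 0.0524, limma). Efna4 made no call (0.16, SE 0.21). Efna1, Efna3 and Efna4 lie side by side on chromosome 3, and 10.5% of the exon bases of Efna4 overlap a listed gene on the other strand, whose reads cannot be told apart without strand.

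**Figure D2:**
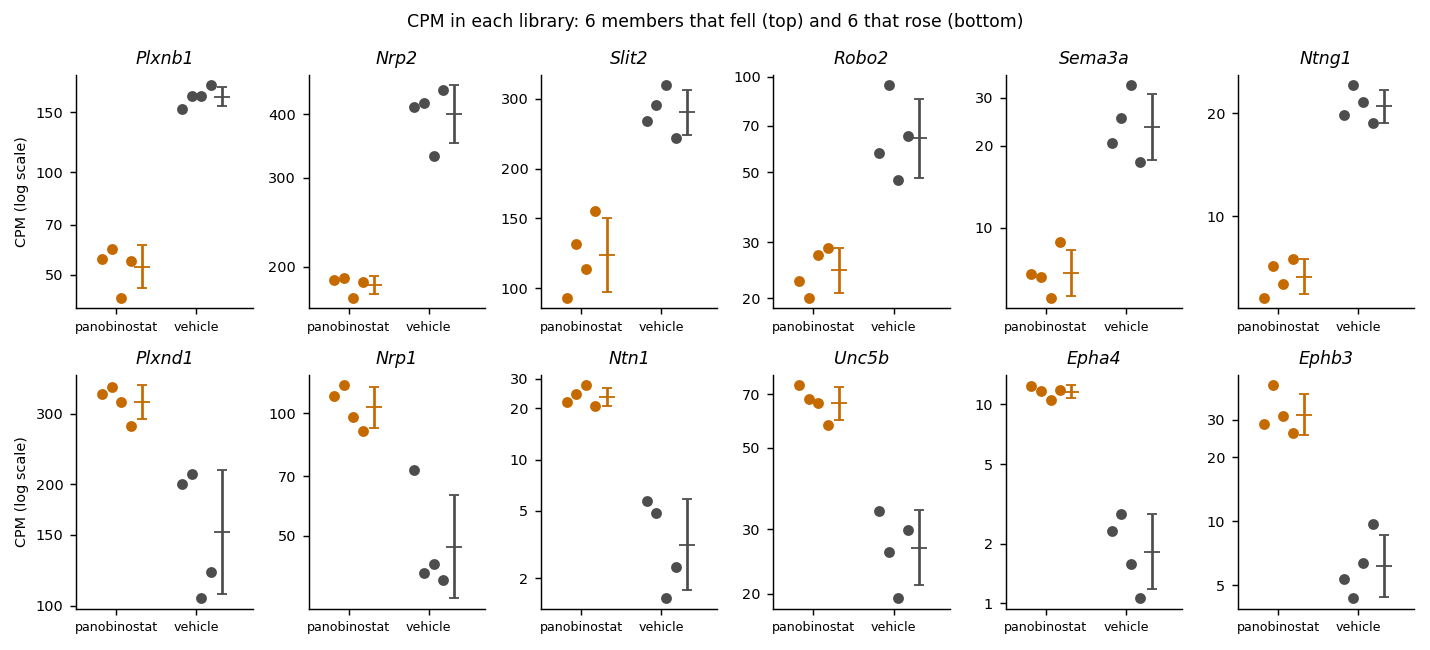
CPM (log axis) of 12 members in each panobinostat (left) and vehicle (right) tumour, as points, with the geometric mean and 1 SD on the log2 scale beside them (n = 4 each). Slit2 holds 94.6 to 157 CPM in panobinostat and 239 to 325 CPM in vehicle tumours, and Ntn1 20.6 to 27.3 against 1.53 to 5.67 CPM.

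Both neuropilins changed, in opposite directions. Nrp2 (chromosome 1, 62703285 to 62818695, mm10), the binding subunit for Sema3f and Sema3c, had 188, 189.8, 174 and 186 CPM in panobinostat tumours, against 413, 422, 331 and 446 CPM in vehicle tumours. Every panobinostat tumour was below every vehicle tumour, and Nrp2 fell by 1.12 on the log2 scale (SE 0.11, adjusted p = 2.75e-05). Nrp1 (chromosome 8, 128358604 to 128503363, mm10), the binding subunit for Sema3a and a co-receptor for VEGF, had 110.01, 117, 98.1 and 90.5 CPM in panobinostat tumours, against 72.3, 40.6, 42.6 and 38.9 CPM in vehicle tumours. All panobinostat tumours were higher, with vehicle tumour 1 the highest of its group, and Nrp1 rose by 1.14 on the log2 scale (SE 0.20, adjusted p = 7.92e-04). Within a library the ratio of Nrp1 to Nrp2 per length, which no library scaling can alter, was 0.588 to 0.746 in panobinostat tumours and 0.105 to 0.212 in vehicle tumours. Nrp1 is also strong in endothelium, and the summed endothelial markers were 397 to 633 CPM in panobinostat tumours and 123 to 633 CPM in vehicle tumours.

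Plexins, the signalling receptors for semaphorins, gave 3 higher, 3 lower and 3 with no call. Plxnb1 (chromosome 9, 109095389 to 109119917, mm10), the Sema4d receptor, had 55.7, 59.5, 42.7 and 55 CPM in panobinostat tumours, against 154, 167, 168 and 180.4 CPM in vehicle tumours. The groups were far apart, and Plxnb1 fell by 1.66 on the log2 scale (SE 0.12, adjusted p = 7.95e-06), the smallest adjusted p of any member. Plxnd1, the Sema3e receptor of vessels, had 335, 349, 320.5 and 279 CPM in panobinostat tumours, against 201, 212, 104 and 121 CPM in vehicle tumours. All panobinostat values were higher, and Plxnd1 rose by 1.07 on the log2 scale (SE 0.23, adjusted p = 0.00255). Plxnc1, the Sema7a receptor found on myeloid cells and neurons, had 35.7, 32.4, 32.1 and 27 CPM in panobinostat tumours, against 15.1, 14.1, 21.6 and 18.2 CPM in vehicle tumours. It did not overlap between groups and rose by 0.90 on the log2 scale (SE 0.16, adjusted p = 0.00107), in tumours where 9 of 10 macrophage markers were higher.

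Plxnb2, the most abundant member per length in both groups (45.7 CPM per kb in panobinostat and 45.2 CPM per kb in vehicle tumours, geometric means), had 359, 379, 350.1 and 326 CPM in panobinostat tumours, against 341, 348, 301 and 417 CPM in vehicle tumours. Its groups overlapped, with a log2 change of 0.02 (SE 0.11) and a 95% interval -0.23 to 0.27. The sign turned with libraries centred on their medians (-0.10), and with quantile normalization Plxnb2 was called higher (0.35, adjusted p = 0.0100). Plxnb3 was low and rose by 2.42 (SE 0.58), with 1.95 to 8.06 CPM in panobinostat and 0.270 to 1.31 CPM in vehicle tumours. It passed the filter only with its panobinostat values. Of the A plexins, which pair with neuropilins or bind class 6 semaphorins, Plxna3 had 98.2, 122, 105 and 116 CPM in panobinostat tumours, against 119.97, 133, 246 and 164 CPM in vehicle tumours. Those values overlapped, and its call (log2 change -0.54, SE 0.21, adjusted p = 0.0446) was lost in the fits without any of the 4 panobinostat libraries or vehicle library 3 or 4. Plxna2 (-0.30, SE 0.12, adjusted p = 0.048) lost its call without any 1 panobinostat library or vehicle library 2 or 3. Plxna1 (0.19, SE 0.12) and Plxna4 (-0.15, SE 0.46) made no call, although Plxna1 was called higher without vehicle library 4 (0.28, adjusted p = 0.0316), with scaling to read totals (0.31) and with quantile normalization (0.45).

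None of the 3 Robo receptors rose. Robo2 (chromosome 16, 73891839 to 74411825, mm10), a Slit receptor of axons, had 22.7, 20.03, 27.3 and 28.8 CPM in panobinostat tumours, against 57.7, 94.1, 47.3 and 65.2 CPM in vehicle tumours. The groups did not overlap, and Robo2 fell by 1.39 on the log2 scale (SE 0.21, adjusted p = 3.83e-04). Robo1, the other axonal Slit receptor, had 37, 28.1, 34.6 and 47.7 CPM in panobinostat tumours, against 37.4, 49.7, 41.6 and 46.6 CPM in vehicle tumours. Its values overlapped and differed by -0.27 (SE 0.17) with a 95% interval -0.65 to 0.11, and it was called without panobinostat library 4 (-0.40, adjusted p = 0.0479). Robo4, the Robo of endothelium, had 10.8, 8.78, 6.48 and 7.52 CPM in panobinostat tumours, against 28.8, 25.8, 4.90 and 11.6 CPM in vehicle tumours. Vehicle tumours 1 and 2 were high and 3 and 4 low, and no call was made (-0.80, SE 0.51, adjusted p = 0.198), whereas without vehicle tumour 3 Robo4 was called lower (-1.31, adjusted p = 0.00971).

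Of the netrin receptors Dcc, which mediates attraction to Ntn1, had 2.98, 5.57, 4.66 and 5.17 CPM in panobinostat tumours, against 10.2, 12.7, 16.2 and 18.7 CPM in vehicle tumours. All panobinostat values were below all vehicle values, and Dcc fell by 1.65 on the log2 scale (SE 0.26, adjusted p = 5.14e-04). Unc5b (chromosome 10, 60762593 to 60831581, mm10), a repulsive netrin receptor of axons and vessels, had 73.9, 67.7, 66 and 57.6 CPM in panobinostat tumours, against 33.6, 26.1, 19.5 and 29.8 CPM in vehicle tumours. The order was the opposite, without overlap, and Unc5b rose by 1.30 on the log2 scale (SE 0.17, adjusted p = 1.51e-04). Unc5a rose by 0.61 (SE 0.20, adjusted p = 0.026) and Unc5d fell by 1.29 (SE 0.49, adjusted p = 0.0431), and both calls were lost in most fits that left out 1 library. Unc5c ranged from 0.820 to 21.1 CPM among vehicle tumours and made no call (0.22, SE 0.83). The ratio of Unc5b to Dcc per length within a library was 23.4 to 52.2 in panobinostat tumours and 2.54 to 6.94 in vehicle tumours.

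All 8 Eph A receptor genes were called, 6 higher and 2 lower. Epha7, the most abundant of them per length in vehicle tumours and a neuronal receptor for Efna5, had 14.4, 12.8, 13.4 and 16.2 CPM in panobinostat tumours, against 30.6, 28, 32.7 and 31.2 CPM in vehicle tumours. The panobinostat values were all lower, and Epha7 fell by 1.11 on the log2 scale (SE 0.12, adjusted p = 5.85e-05). Epha5, a neuronal receptor of the same ligand, had 17.2, 24.4, 21.8 and 22.8 CPM in panobinostat tumours, against 28.9, 37.2, 48.9 and 48.9 CPM in vehicle tumours. It too was lower in every panobinostat tumour and fell by 0.90 on the log2 scale (SE 0.19, adjusted p = 0.00279).

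Among the Eph A genes that rose, Epha2 (chromosome 4, 141301240 to 141329384, mm10), the receptor of Efna1 in epithelium and vessels, had 10.1, 12.2, 12.2 and 11.3 CPM in panobinostat tumours, against 4.17, 3.80, 2.99 and 4.18 CPM in vehicle tumours. The groups were clearly separate, and Epha2 rose by 1.60 on the log2 scale (SE 0.18, adjusted p = 6.22e-05). Epha4, which binds A- and B-type ephrins, had 12.4, 11.7, 10.5 and 11.8 CPM in panobinostat tumours, against 2.32, 2.82, 1.57 and 1.06 CPM in vehicle tumours. It was low in vehicle tumours and rose by 2.67 on the log2 scale (SE 0.30, adjusted p = 6.71e-05). Epha3 rose by 3.25 (SE 0.57), the largest change of any member, with 5.48 to 15.6 CPM in panobinostat and 0.421 to 2.76 CPM in vehicle tumours. Epha8 (2.44, SE 0.57) and Epha1 (2.07, SE 0.49) were higher without overlap, and Epha10, whose kinase domain is inactive, was higher with overlap (1.14, SE 0.38). Epha3, Epha8 and Epha1 passed the filter only with their panobinostat values. Without panobinostat libraries 3 and 4 the calls of Epha1, Epha8 and Epha10 were lost (adjusted p = 0.0636, 0.0570 and 0.174), and that of Epha10 also without panobinostat library 2, 3 or 4 or vehicle library 2.

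Eph B receptors gave 2 higher, 1 lower and 2 with no call. Ephb3, a receptor of transmembrane ephrins, had 28.7, 43.6, 31.3 and 25.9 CPM in panobinostat tumours, against 5.37, 4.34, 6.32 and 9.71 CPM in vehicle tumours. The groups were far apart, and Ephb3 rose by 2.37 on the log2 scale (SE 0.26, adjusted p = 6.27e-05). Ephb1, the Eph B gene that fell, had 3.79, 3.03, 3.70 and 3.75 CPM in panobinostat tumours, against 8.28, 13, 8.36 and 8.24 CPM in vehicle tumours. Without overlap it fell by 1.39 on the log2 scale (SE 0.21, adjusted p = 3.65e-04). Ephb4, the venous receptor of Efnb2, rose by 1.73 on the log2 scale (SE 0.46, adjusted p = 0.00925). Ephb2, the most abundant of the class per length in vehicle tumours, had 59, 82.9, 78.3 and 81.9 CPM in panobinostat tumours, against 75.1, 83, 106 and 123 CPM in vehicle tumours. These values overlapped (log2 change -0.34, SE 0.18, 95% interval -0.74 to 0.05), and without vehicle library 1 Ephb2 was called lower (-0.46, adjusted p = 0.0420). Ephb6, which lacks kinase activity, made no call (0.81, SE 0.51).

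The make-up of several classes, a measure within each library that scaling cannot alter, differed between the groups. The share of Epha7 and Epha5 together in the Eph A transcripts per length was 23.9% ± 1.00 in panobinostat tumours and 69.6% ± 4.87 in vehicle tumours (mean ± SD, n = 4 each). Sema3a made up 2.19% ± 0.881 in panobinostat tumours and 17.1% ± 4.80 in vehicle tumours of the class 3 semaphorins. For Nrp2 the share of the neuropilins was 59.6% ± 2.45 in panobinostat tumours and 87.3% ± 3.59 in vehicle tumours. Ntn1 made up 26.6% ± 3.76 in panobinostat tumours and 3.50% ± 2.18 in vehicle tumours of the netrin family, and Efnb3 26.4% ± 2.36 in panobinostat tumours and 51.4% ± 3.60 in vehicle tumours of the ephrins. In each of these cases the ranges of the groups did not overlap. The shares were picked after their values were seen and are given without a test. Union exon lengths stand for transcript lengths here, so a gene with long exons that few transcripts use would have its level per length understated. Whether this holds for Slit2, with 25433 union exon bases against 6067 for Slit3, was not tested.

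**Figure D3:**
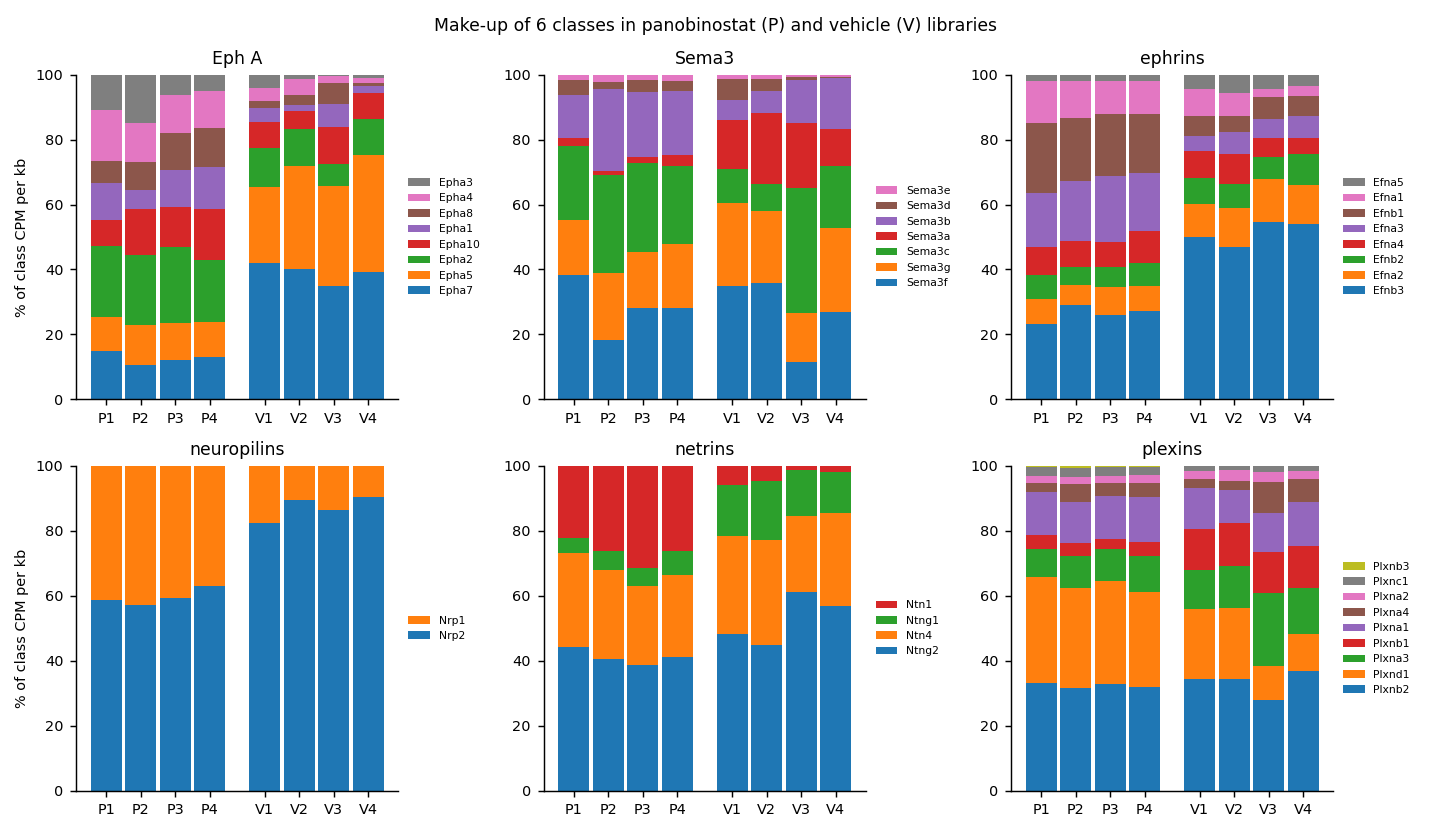
Stacked bars give the percentage of each class's summed CPM per kb taken by each gene, in panobinostat tumours 1 to 4 (P1 to P4, left) and vehicle tumours 1 to 4 (V1 to V4, right). Epha7 and Epha5 fill 22.9 to 25.3% of the Eph A bar in panobinostat tumours and 65.3 to 75.4% in vehicle tumours.

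For 25 pairs of a ligand and a receptor that are known to bind, both genes were higher in 6 pairs, both lower in 4, and opposite in 7, while 8 held at least 1 gene with no call. Genes recur in several pairs, so the pairs are not independent, and the list was drawn up with the changes known. Both were lower for Slit2 (-1.20, SE 0.16) with Robo2 (-1.39, SE 0.21) and for Efna5 (-1.34, SE 0.18) with Epha5 (-0.90, SE 0.19) and Epha7 (-1.11, SE 0.12). Both were higher for Sema3e with Plxnd1, Ntn1 with Unc5b, Efna1 with Epha2 and Efnb1 with Ephb3. Opposite were the 2 pairs best known from sympathetic development: Sema3a fell (-1.78, SE 0.23) and Nrp1 rose (1.14, SE 0.20), while Sema3f rose (1.36, SE 0.28) and Nrp2 fell (-1.12, SE 0.11). Ntn1 (2.89, SE 0.39) and Dcc (-1.65, SE 0.26) were also opposite. Each value is of transcripts in whole tumours, so ligand and receptor may come from different cells.

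**Figure D4:**
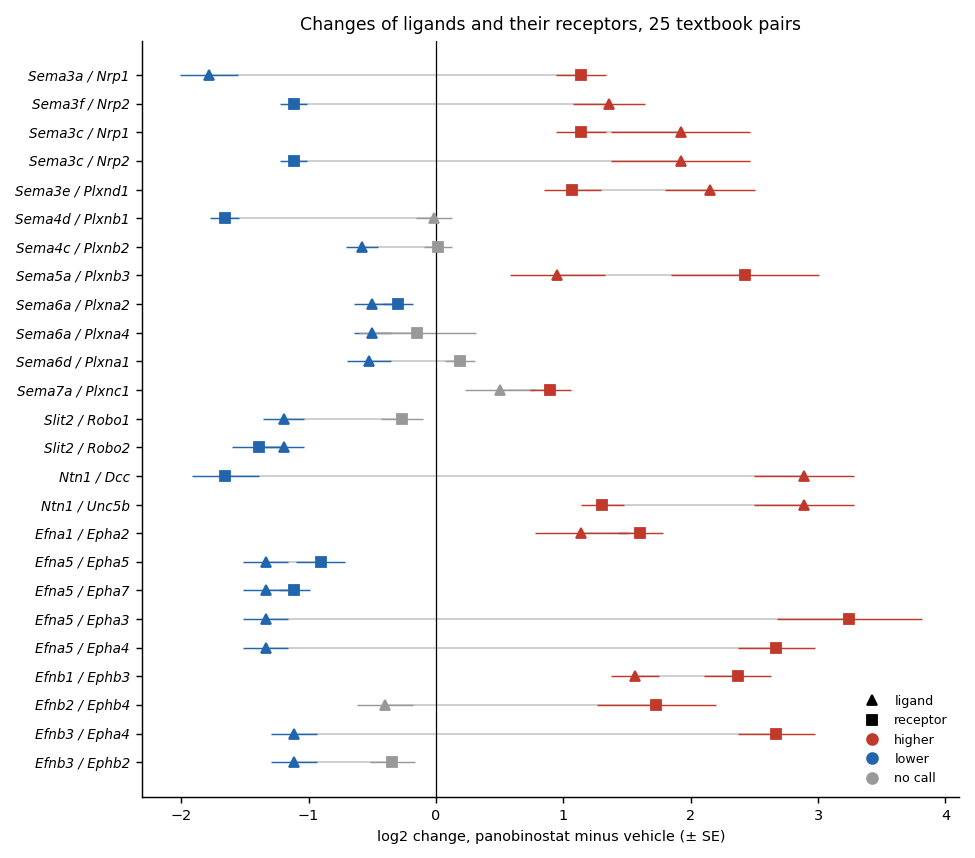
Log2 change (panobinostat minus vehicle, ± SE, n = 4 tumours each) of the ligand (triangle) and receptor (square) in 25 known pairs; red is called higher, blue called lower and grey not called. The widest gap is that of Efna5 (-1.34) and Epha3 (3.25), with Ntn1 (2.89) and Dcc (-1.65) next.

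Of 10 members known to be strong in blood vessels, 6 were higher, 1 lower and 3 made no call (median log2 change 1.04). Over all genes tested 31.2% were higher and 32.4% lower. Endothelial markers varied widely among vehicle tumours, with summed levels of 633, 509, 456 and 397 CPM in panobinostat tumours, against 633, 434, 123 and 283 CPM in vehicle tumours. Panobinostat tumour 1 and vehicle tumour 1 held the same sum (633 CPM), and Ephb4 stood at 63.9 CPM in the panobinostat tumour and 32.9 CPM in the vehicle tumour. In this pair of tumours Robo4 was at 10.8 CPM with panobinostat and 28.8 CPM with vehicle. Plxnd1 was at 335 CPM with panobinostat and 201 CPM with vehicle, and Unc5b at 73.9 CPM with panobinostat and 33.6 CPM with vehicle. This sets 1 tumour against 1 and carries no test. Other marker sums of the pair differed in both directions. With panobinostat and vehicle, fibroblast and mural markers summed to 16585 and 5125 CPM, and macrophage markers to 3387 and 1171 CPM. Schwann cell markers summed to 229 and 265 CPM, and sympathoadrenal markers to 1659 and 2733 CPM. As a percentage of the endothelial sum of its own library, Ephb4 was at 9.19 to 10.2% in panobinostat tumours and 3.95 to 5.20% in vehicle tumours. Robo4, on the same measure, was at 1.42 to 1.89% in panobinostat tumours and 3.97 to 5.93% in vehicle tumours. Neither gene overlapped between groups on this measure. Of the 10 genes 4 did not overlap, the others being Efna1 (2.13 to 2.81% in panobinostat tumours and 1.43 to 2.07% in vehicle tumours) and Nrp2 (29.7 to 47% in panobinostat tumours and 65.3 to 268% in vehicle tumours). Nrp1 overlapped (17.4 to 23% in panobinostat tumours and 9.34 to 34.5% in vehicle tumours). Plxnd1 also overlapped (53 to 70.4% in panobinostat tumours and 31.7 to 84.6% in vehicle tumours), as did Unc5b (11.7 to 14.5% in panobinostat tumours and 5.31 to 15.8% in vehicle tumours). Nrp1, Plxnd1 and Unc5b each overlapped only through vehicle tumour 3, which had the lowest endothelial sum. These ratios were formed after the values were seen and carry no test, and the share of all genes without overlap on this measure was not computed.

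**Figure D5:**
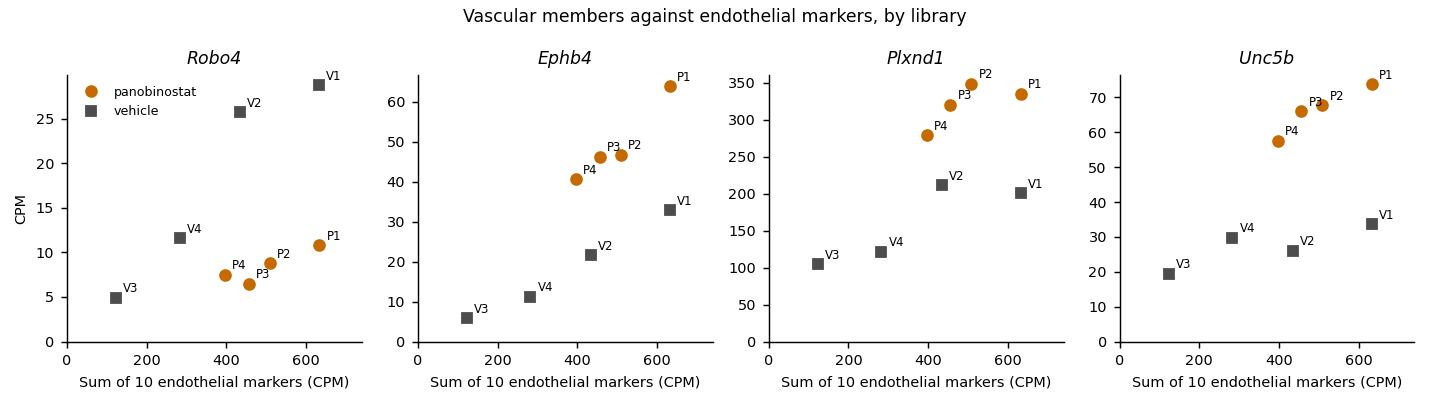
CPM of Robo4, Ephb4, Plxnd1 and Unc5b against the summed CPM of 10 endothelial markers in each panobinostat tumour (circles, P1 to P4) and vehicle tumour (squares, V1 to V4). At a sum of 633 CPM, P1 lies below V1 for Robo4 (10.8 and 28.8 CPM) and above it for the other genes. P1 and V1 are single tumours, and their comparison carries no test.

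Members varied more among vehicle tumours than among panobinostat tumours. The median SD of log2 CPM was 0.21 in the panobinostat group and 0.39 in the vehicle group, and 53 of 68 members had the smaller SD with panobinostat. Over all genes tested these medians were 0.16 for panobinostat and 0.30 for vehicle. In 17 members (25%) the highest vehicle tumour was at least 3 times the lowest, against 13.5% of all genes. Of the 17, 8 (Slit1, Plxna4, Sema4f and Sema3c among them) were higher in vehicle tumours 3 and 4 than in 1 and 2. Plxna4, a receptor for Sema3a with Nrp1, had 56.1, 122, 82.8 and 79.1 CPM in panobinostat tumours, against 46.9, 51.6, 189 and 147 CPM in vehicle tumours. The reverse pattern, higher in vehicle tumours 1 and 2, was that of 7 members, Robo4, Ephb4, Ntn1, Epha3 and Unc5c among them. Endothelial markers were higher in the same pair of vehicle tumours, and their part was not tested. This split was noticed after the values were seen.

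Further genes of these pathways, which include other ligands, receptors and co-receptors as well as downstream genes, also held calls in both directions. Of 18 genes of semaphorin signalling 7 were higher and 5 lower (median log2 change 0.06). Of 10 genes of Slit and Robo signalling 2 were higher and 6 lower (median -0.61), led by the kinase gene Abl2 at -1.16 (SE 0.09) and the secreted Robo3 ligand gene Nell2 at -1.81 (SE 0.15). Sdc1, a heparan sulfate proteoglycan, was higher at 0.36 (SE 0.13). Netrin signalling gave 4 higher and 7 lower of 13 (median -0.30), with the guanine exchange factor genes Trio at -1.11 (SE 0.08) and Dock1 at 1.60 (SE 0.24), and the lipid transfer protein gene Pitpna at 0.96 (SE 0.09). For Eph and ephrin signalling 5 of 14 were higher and 5 lower (median 0.01), among them the adaptor gene Efs at -2.72 (SE 0.12), Chn1, an effector of Epha4, at -1.33 (SE 0.13) and the exchange factor gene Vav3 at 1.41 (SE 0.28). The shares called are to be read against the 31.2% higher and 32.4% lower of all genes, and macrophage and fibroblast markers were higher in the same tumours.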

How the data were processed

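Whole-tumour RNA-seq libraries of 4 panobinostat-treated and 4 vehicle-treated mice were compared. The deposited table of the whole series holds log2 values, which the authors made from read counts. Per the submitters' processing notes, CASAVA 1.8.2, TopHat2, HTSeq, limma and the mm10 build were used, with no role or order. Not given in the sources used here were the annotation, the strand setting, the authors' filter and their normalization. The deposited log2 values matched log2 CPM of whole reads plus 0.5, on an effective library size, with 100.0% of values within 0.001 of a whole read. Read totals of 18664066 to 23830026 set the counting precision.

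Of 17488 listed genes, 17236 had a GENCODE M21 symbol. Genes that reached 1 CPM in 4 or more of the 8 libraries, 16157 in all, were tested two-sided in limma 3.58.1 (R 4.3.3), with lmFit, eBayes with a variance trend and Benjamini-Hochberg adjustment, threshold 0.05. The fit was tested on simulated data. Levels per length divide CPM by union exon bases. Alternatives were other filters, scalings, weights, an added 1 CPM, a test against a 1.5-fold change and left-out libraries. Members, lists and pairs were chosen with earlier results of these data known. Values per library are given, within each class, for the 2 smallest adjusted p, the highest level per length and any gene against its class's majority, and for a few other genes chosen after their values were seen. Of each signalling list, the 2 smallest adjusted p and the largest opposite change are named, except for the semaphorin list, 1 gene of which is not reported here. Promoters and their build are from RefSeq. The labels name animals but no litters or batches. The p-values set each group difference against the spread between animals within the groups. A batch or litter shared by a whole group could not be told apart from treatment.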

Additional observations from a re-analysis of the deposited data

Results flagged for a closer look

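In 6 of 136 groups of 4 values (68 members in 2 groups) 1 tumour stood apart from the other 3; its gap to the nearest of them, as a share of the group's range, was past Dixon's 95% critical value. Chance flags about 1 in 20 groups, and each case is given as its log2 CPM. Ephb1 was lowest in panobinostat tumour 2 (1.60, next 1.89) and highest in vehicle tumour 2 (3.70, next 3.06). Ephb2 was lowest in panobinostat tumour 1 (5.88, next 6.29). Sema3e was highest in panobinostat tumour 2 (2.87, next 1.81). Nrp1 was highest in vehicle tumour 1 (6.18, next 5.41), the vehicle tumour with the highest endothelial sum. Sema3f was lowest in vehicle tumour 3 (2.82, next 3.95). The calls of Ephb1, Sema3e, Nrp1 and Sema3f were kept in every fit that left out 1 library.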

How the results depend on the processing

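No called member changed sign in any alternative. Of the 46 calls, 37 were kept in every fit that left out 1 library. Counting only alternatives in which a gene was tested, 32 were kept in each one other than the test against a 1.5-fold change. With that test included, 25 were kept. Leaving out 1 library gave 22 to 26 members higher and 16 to 21 lower, 10 to 12 ligands higher and 9 to 11 lower, and 12 to 15 receptors higher and 7 to 11 lower. It gave 4467 to 5106 of all genes higher and 4708 to 5361 lower, and a members' median of 0.03 to 0.13. Against a 1.5-fold change, which asks for a larger change by construction, 16 members were higher and 11 lower (7 ligands higher and 5 lower, 9 receptors higher and 6 lower), and 2802 genes were higher and 2186 lower. Without panobinostat libraries 3 and 4, which leaves fewer samples, 13 members and 6 ligands were lower and 13 calls were lost. Scaling to read totals moved the members' median to 0.21 and that of all genes to 0.10. Quantile normalization and median centring both moved the median of all genes to -0.14, and changes are to be read relative to these shifts. With a minimum of 5 CPM, 63 members were tested, with 22 higher and 19 lower. Sema3e and Plxnb3 were not tested there, and their calls are counted as kept above.

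In 11 members with no call the sign changed, and the cause was not tested. With quantile normalization the log2 change was -0.37 for Efna4, 0.036 for Plxna4, 0.039 for Sema4d, -0.12 for Sema4f, -0.024 for Unc50 and -0.30 for Unc5c. Centred on medians, it was -0.10 for Plxnb2 and -0.099 for Unc50. Scaled to read totals, it was 0.077 for Sema4b, 0.11 for Sema4d, 0.091 for Sema6b and 0.070 for Sema6c. Without panobinostat libraries 3 and 4 it was 0.043 for Sema4b and 0.064 for Sema6c. Leaving out 1 library at a time, it ranged from -0.46 to 0.21 for Plxna4, from -0.054 to 0.10 for Plxnb2, from -0.14 to 0.060 for Sema4d, from -0.16 to 0.81 for Sema4f, from -0.37 to 0.16 for Sema6b, from -0.19 to 0.040 for Sema6c, from -0.76 to 0.014 for Slit1, from -0.059 to 0.081 for Unc50 and from -0.73 to 0.83 for Unc5c.

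No paired analysis was possible because the labels give the 2 groups no shared replicate numbers. Depth limits the low members most, since Plxnb3, Epha3, Sema3e, Epha1, Epha4 and Epha8, all called higher, were under 3 CPM in every vehicle tumour. Plxnb3, Epha3, Sema3e, Epha1, Epha8, Sema3d and Unc5c were under 1 CPM in at least 1 vehicle tumour. They therefore passed the filter only with their panobinostat values, and of them all but Unc5c were called higher. Unc5d, called lower, was at 0.784 CPM in panobinostat tumour 1 and passed the filter only with its vehicle values. Reads of overlapping genes on the 2 strands cannot be told apart where the strand setting is not given.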
